A study of Mus musculus with 2 samples.

Results

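The genes described here are Elane, Mpo, Prtn3, Ctsg, Camp, Ngp, Ltf, Mmp9 and Retnlg, 9 of the 24984 gene symbols counted in single cell RNA-seq of dystrophic mouse muscle. They were chosen by measured values: earlier results of the same libraries had shown them in cells with neutrophil genes and lower in 1 library, so their levels and the difference between libraries are given as a description. Live mononuclear cells had been sorted from the hind limb muscles of mdx mice, a dystrophin-deficient strain used to model Duchenne muscular dystrophy. Ctrl cells were taken from mdx mice with Pax7CreERT2/R26YFP and Yy1+/+, and dKO cells from mdx mice with Pax7CreERT2/R26YFP and Yy1f/f, in which tamoxifen deletes the transcription factor gene Yy1 in muscle stem cells (MuSCs), the cells in which the Pax7 promoter drives Cre. Per the study both groups were given tamoxifen and were sampled a month later, while the GEO label of the Ctrl library gives no treatment. The labels give no age. Each library was made from the pooled cells of several mice, after lysis of red cells and sorting by propidium iodide for live cells. With 1 library per group no spread between replicates could be measured, so differences are given without a test.

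The Ctrl library held 4527 cells with a median of 7697 unique molecular identifiers (UMIs, 1 per RNA molecule caught), and the dKO library 3483 cells with a median of 7615. They shared 7 cell barcodes. CPM is the UMIs of a gene scaled to a fixed total over all UMIs of the cells named. Where no cells are named, those are all cells of the library. In Ctrl, Yy1 was counted at 302 UMIs (188 CPM, 167 to 210) in 78 cells of the MuSC and myocyte class with a Pax7 UMI. In 20 such dKO cells it was counted at 11 UMIs (23.9 CPM, 11.9 to 42.8). In the cells that carried the granule genes, where the Pax7 promoter is not known to act, Yy1 stood at 178 CPM in Ctrl (153 to 206) and 162 CPM in dKO (105 to 240). Ranges after a value are 95% intervals, exact binomial for shares of cells and exact Poisson for sums of UMIs, and cover counting error only.

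Neutrophils fill their granules in a fixed order while they mature in the bone marrow. Promyelocytes, which still divide, make the proteins of azurophil (primary) granules, among them the serine proteases encoded by Elane, Prtn3 and Ctsg and the peroxidase encoded by Mpo. Myelocytes and metamyelocytes then make those of specific (secondary) granules, such as the antimicrobial peptide precursor encoded by Camp, the iron-binding lactoferrin encoded by Ltf and the neutrophilic granule protein encoded by Ngp. Division ends as the cells mature, and genes of late granules and of circulating neutrophils follow, here the gelatinase gene Mmp9 and the resistin-like gene Retnlg. Cells with azurophil transcripts are therefore usually looked for in marrow, and neutrophils in tissue are usually past that point.

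On GRCm38 (GENCODE M21) Prtn3 (chr10:79874476-79883174) and Elane (chr10:79886247-79888215) lie next to each other on the plus strand, 3072 bases apart. Camp, Ngp and Ltf lie on chromosome 9 within 1195.4 kilobases. Mpo is on chromosome 11, Ctsg on 14, Mmp9 on 2 and Retnlg on 16.

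The promoters of the 4 azurophil genes and of a pair of specific granule genes are shown because they hold the letters of a PU.1 or C/EBP site and the genes of each set were found in the same cells. Each line gives the 250 bases before the start of transcription, 5′ to 3′ on the strand of the gene (RefSeq, GRCm38.p6), and the intervals are chr10:79886062-79886311 (+) for Elane, chr11:87793534-87793783 (+) for Mpo, chr10:79879417-79879666 (+) for Prtn3, chr14:56102575-56102824 (-) for Ctsg, chr9:110419558-110419807 (+) for Ngp and chr9:111019042-111019291 (+) for Ltf. Capitals mark GAGGAAG, the core letters of a PU.1 site, and TTGCNNAA, those of a C/EBP site, each searched on both strands. RefSeq and GENCODE set some starts apart, so that the Prtn3 interval lies inside the GENCODE gene and those of Elane, Mpo, Ngp and Ltf run past its start. PU.1 and the C/EBP proteins are the main transcription factors of the granulocyte lineage.
Elane: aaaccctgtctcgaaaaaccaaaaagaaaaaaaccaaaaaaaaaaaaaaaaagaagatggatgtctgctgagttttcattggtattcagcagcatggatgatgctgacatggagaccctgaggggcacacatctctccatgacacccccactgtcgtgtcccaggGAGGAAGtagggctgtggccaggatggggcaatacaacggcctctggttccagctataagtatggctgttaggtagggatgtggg
Mpo: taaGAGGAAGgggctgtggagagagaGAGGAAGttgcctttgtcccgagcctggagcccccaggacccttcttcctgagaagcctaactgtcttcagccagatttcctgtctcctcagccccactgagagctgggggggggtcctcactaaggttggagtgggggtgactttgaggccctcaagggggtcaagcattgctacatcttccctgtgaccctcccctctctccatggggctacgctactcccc
Prtn3: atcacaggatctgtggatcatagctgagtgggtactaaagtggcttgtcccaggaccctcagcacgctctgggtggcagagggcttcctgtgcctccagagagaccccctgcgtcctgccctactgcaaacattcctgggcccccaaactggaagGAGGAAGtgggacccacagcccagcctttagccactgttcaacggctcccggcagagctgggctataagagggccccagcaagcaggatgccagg
Ctsg: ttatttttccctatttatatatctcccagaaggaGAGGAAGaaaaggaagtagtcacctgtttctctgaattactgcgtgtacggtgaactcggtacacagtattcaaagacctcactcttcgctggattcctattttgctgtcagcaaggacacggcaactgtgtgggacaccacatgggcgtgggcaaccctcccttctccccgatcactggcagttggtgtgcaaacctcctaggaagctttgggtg
Ngp: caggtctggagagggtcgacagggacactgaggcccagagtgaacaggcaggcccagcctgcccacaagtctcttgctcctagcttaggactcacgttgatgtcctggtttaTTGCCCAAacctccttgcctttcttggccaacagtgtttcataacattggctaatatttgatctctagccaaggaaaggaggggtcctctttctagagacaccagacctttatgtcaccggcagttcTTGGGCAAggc
Ltf: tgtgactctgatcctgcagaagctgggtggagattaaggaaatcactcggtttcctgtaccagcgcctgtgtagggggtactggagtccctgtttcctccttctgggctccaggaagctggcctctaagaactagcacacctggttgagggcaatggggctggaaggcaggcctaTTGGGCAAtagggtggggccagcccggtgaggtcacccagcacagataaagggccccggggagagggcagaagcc

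A promoter was found for 8 of the 9 genes, all but Mmp9. GAGGAAG was present in 4 of these 8, which were the 4 azurophil genes, against 10.6% of all 32851 promoters of that length. TTGCNNAA was present in 3 of the 8, with matches at -138 and -11 before the start of Ngp and at -75 of Ltf, besides Retnlg at -246, against 9.56% of all promoters. The promoter of Camp, the third specific granule gene, held none of the motifs searched. The letters AACNGNC of a MYB site were in 5 of 8 (27.7% of all promoters) and TATAAA in 1 of 8, Ctsg (12.4%). These motifs do not overlap one another, were picked for the lineage with the genes known, and a match of letters is a description and not a shown site.

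To ask which cells held these transcripts, a cell was called a carrier of a set if it had 10 or more UMIs summed over the genes of that set. The sets were azurophil (Elane, Mpo, Prtn3 and Ctsg), specific (Camp, Ngp and Ltf) and late (Mmp9 and Retnlg). In Ctrl, 23 of 4527 cells carried the azurophil set (0.508%, 0.322 to 0.761), and in dKO 0 of 3483 cells did, which allows a share of up to 0.0861% when a count of 0 is taken as at most 3 cells, and up to 0.106% by the exact interval. Against that floor of 3 cells the Ctrl share was at least 5.90-fold higher, a bound that leaves out the counting error of the 23 Ctrl cells. The specific set was carried by 57 Ctrl cells (1.26%, 0.955 to 1.63) and 8 dKO cells (0.230%, 0.0992 to 0.452), a 5.48-fold difference with a counting interval of 2.60 to 13.3. The late set was carried by 61 Ctrl cells (1.35%, 1.03 to 1.73) and 18 dKO cells (0.517%, 0.307 to 0.816), a 2.61-fold difference (1.52 to 4.69).

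The limit of 10 UMIs fell in a clear gap for the azurophil set, and in dKO for the specific set. The Ctrl cells nearest to it had 20 and 26 azurophil UMIs inside and 9 and 7 outside, and the dKO cell with most azurophil UMIs had 4. For the specific set the nearest Ctrl cells had 11 and 12 UMIs inside and 7 and 7 outside, and the nearest dKO cells 14 and 214 inside and 1 and 1 outside. For the late set the nearest Ctrl cells had 11 and 12 inside and 9 and 9 outside, and a limit of 3 UMIs gave 99 Ctrl and 41 dKO late carriers and 67 Ctrl specific carriers.

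The combinations of sets are listed in the order of granule formation. In Ctrl, 19 cells carried the azurophil set alone, 4 the azurophil and specific sets, 15 the specific set alone, 38 the specific and late sets and 23 the late set alone. No cell carried the azurophil and late sets together. Either set was carried by few cells (23 and 61 of 4527 in Ctrl), so no order is read from that count. The 4 cells with both azurophil and specific genes were 17.4% of the azurophil and 7.02% of the specific carriers, and the 38 cells with specific and late genes were 66.7% of the specific and 62.3% of the late carriers. In dKO the same combinations held 0, 0, 1, 7 and 11 cells. Of the 99 Ctrl cells with any set, 23.2% carried azurophil genes (15.3 to 32.8), and of the 19 dKO cells with any set 0 did, an exact interval that reaches 17.6%. The dKO interval rests on 19 cells, and the difference between these shares was not tested.

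**Figure D1:**
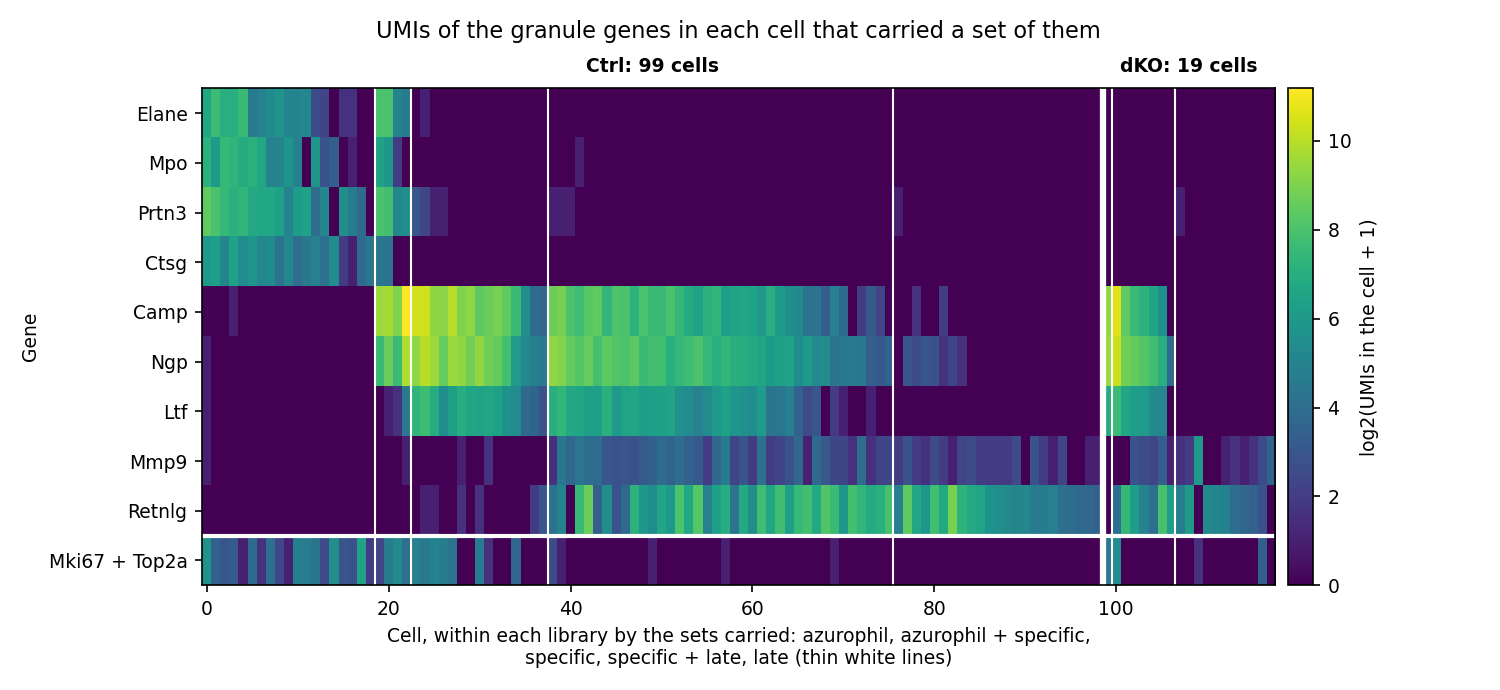
UMIs of the 9 granule genes, and of Mki67 and Top2a summed, in each of the 99 Ctrl and 19 dKO cells that carried at least 1 set (columns), as log2(UMIs + 1). The azurophil genes fill the left block of Ctrl and are at 0 or 1 UMI in every dKO carrier, only 4 cells pass the limit of 10 UMIs for both the azurophil and the specific set, and the cycling genes fade to the right within Ctrl.

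Among the azurophil genes Elane, the gene of neutrophil elastase, was counted at 1603 UMIs in 46 Ctrl cells and at 3 UMIs in 3 dKO cells. Of the Ctrl UMIs 98.1% were in the 23 carriers, where a cell held 0 to 258 of them (median 31). Mpo was counted at 1305 UMIs in 53 Ctrl cells and 24 UMIs in 22 dKO cells, and a carrier held 0 to 177 (median 31). Prtn3, the gene of proteinase 3, was the most abundant of the set, at 2547 UMIs in 155 Ctrl cells and 103 in 93 dKO cells, and a carrier held 0 to 353 (median 84). Ctsg, the gene of cathepsin G, was counted at 707 UMIs in 36 Ctrl cells and 4 UMIs in 4 dKO cells, and a carrier held 0 to 86 (median 21). No dKO cell had more than 3 UMIs of any of the 4 genes. UMIs are counted once per molecule, so these levels carry no scaling by transcript length.

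The genes of this set were found together. All 4 were present in 16 of the 23 carriers. When cells were chosen by 10 or more UMIs of the other 3 genes, Elane was present in 20 of 23 cells at 2998 CPM against 0.688 CPM in all other Ctrl cells, and Mpo in 18 of 23 cells at 2412 CPM against 0.888 CPM. Prtn3 was present in 19 of 21 cells so chosen, at 4680 CPM against 5.48 CPM, and Ctsg in 19 of 21, at 1241 CPM against 1.73 CPM.

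All 23 azurophil carriers had at least 1 UMI of Mki67 or Top2a, genes of dividing cells (100%, 85.2 to 100), against 13.4% of the other Ctrl cells. The carriers were deep cells, with a median of 21659 UMIs, and depth moves a share of this kind. At 2000 UMIs per cell, 15 of 23 still had a UMI of the pair (65.2%), against 6.76% of 3804 Ctrl cells that carried no set and 5.39% of 3005 such dKO cells. Over a list of 16 cell cycle genes the 19 cells with the azurophil set alone held 7 to 264 UMIs each, a median of 60. All 19 had 5 or more, a count that was not matched for depth. As a share of UMIs the list stood at 3072 CPM in these 19 cells, against 539 CPM in Ctrl cells that carried no set.

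The share with a cycling gene was lower in cells with later granule genes. In Ctrl it was 19 of 19 cells with the azurophil set alone, 4 of 4 with azurophil and specific genes, 8 of 15 with the specific set alone (53.3%, 26.6 to 78.7), 5 of 38 with specific and late genes (13.2%, 4.41 to 28.1) and 0 of 23 with the late set alone (exact upper bound 14.8%). Thinned to 2000 UMIs these were 11 of 19, 4 of 4, 7 of 13, 2 of 38 and 0 of 14 cells, with 2 cells of the specific set alone and 9 of the late set alone left out as too shallow. The median depth was lower along the same series, from 21156 UMIs with the azurophil set alone and 22784.5 with azurophil and specific genes to 8857, 5688.5 and 2367 UMIs. As a share of UMIs, which depth does not set, Mki67 and Top2a together stood at 778, 948 and 1191 CPM in the 3 combinations without late genes. The pair stood at 32.5 CPM with specific and late genes and at 0 with the late set alone. Among cells with the azurophil set alone it ran from 294 to 1043 CPM between the groups by lineage genes described below. Cells without any set stood at 115 CPM in Ctrl and 103 CPM in dKO.

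**Figure D2:**
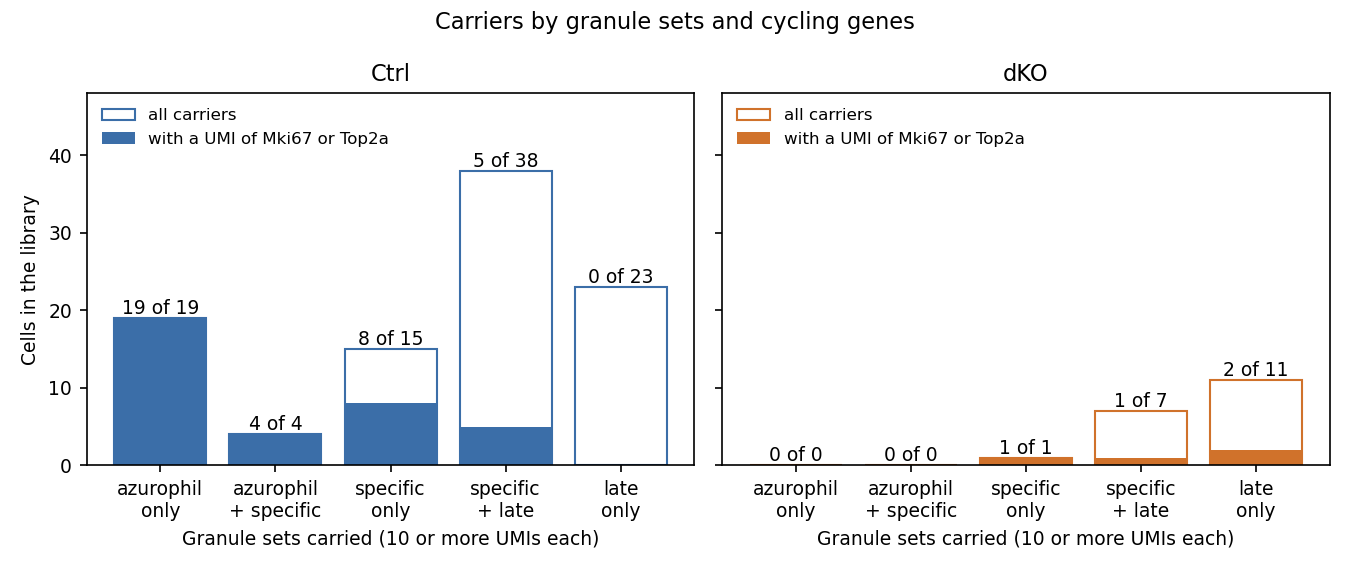
Number of cells by the granule sets they carried (open bars) and the number of these with a UMI of Mki67 or Top2a (filled), for Ctrl and dKO. All 23 Ctrl cells with azurophil genes had a cycling gene and 0 of 23 with late genes alone did, while dKO had 0 cells with azurophil genes.

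**Figure D3:**
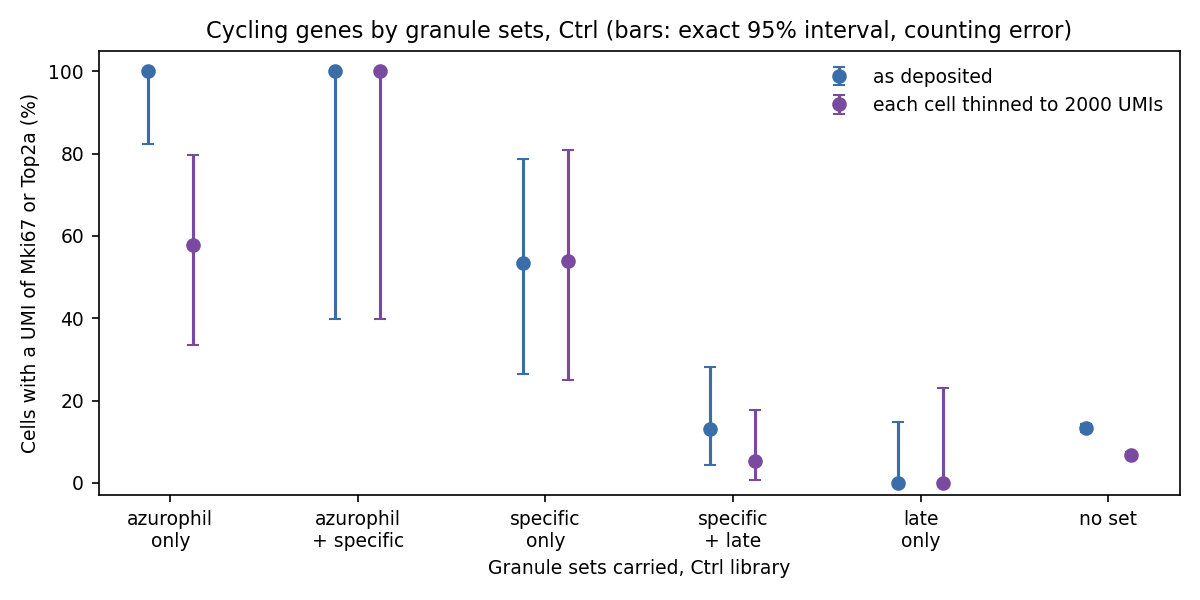
Share of Ctrl cells with a UMI of Mki67 or Top2a, in percent, by the granule sets carried, with all UMIs and with each cell thinned to 2000 UMIs; bars are exact 95% intervals for counting error. The share stays at 53.8% or above in the 3 combinations without late genes after thinning and is 5.26% and 0% in those with late genes.

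The dKO carriers were too few to set beside this series. The 1 dKO cell with the specific set alone had 20 UMIs of Mki67 and Top2a and 49 of the cell cycle list. Of 7 dKO cells with specific and late genes 1 had a cycling gene, at 44 UMIs of the pair, and of 11 with the late set alone 2 did, with at most 9. The cell with 44 UMIs of the pair was also the one with most Camp and Ngp of its library.

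The azurophil carriers were not all of 1 kind. The 4 that also carried specific granule genes held 524 to 2321 UMIs of Camp, 182 to 892 of Ngp and 0 to 21 of Ltf. They held 10 to 20 UMIs of Cebpe, a C/EBP factor gene of the step to specific granules, and 14 to 56 UMIs of the ficolin gene Fcnb, while Irf8 was at 0 or 1. S100a8 and S100a9, which encode the calprotectin proteins of neutrophils, made up 142900 CPM in these 4 cells and 385 CPM in the 19 cells with the azurophil set alone. All 4 took the neutrophil class, against 1 of the 19.

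The 19 cells with the azurophil set alone held genes of several lineages. In 8 cells Irf8, a factor gene of monocytes and dendritic cells, was at 10 UMIs or more (10 to 39), and in these Ly6c2, a monocyte gene, was at a median of 70 UMIs (2328 CPM over the 8 cells). Ly6c2 was also in 6 of the 7 remaining cells described next (2121 CPM) and in the 4 cells with specific granule genes (1062 CPM). In 4 others genes of basophils and mast cells summed to 10 UMIs or more. The deepest carrier was among these 4, with 10 UMIs of Mcpt8 and none of the other genes of that list. A cell of 8576 UMIs with 9 of Cpa3 fell under that limit and is among the 7 below. The remaining 7 held 25 to 247 UMIs of Prtn3, 2 to 200 of Elane, at most 5 of Irf8 and 1 to 13 of Ms4a3, a gene of granulocyte and monocyte progenitors. Mki67 and Top2a summed to 294 CPM in these 7 cells, against 1043 CPM in the 8 with Irf8 and 845 CPM in the 4 with basophil or mast cell genes. The limit on Irf8 was set after its values had been seen, so the split is a description. By the marker panels, 9 of the 19 were unassigned, 3 took the monocyte and macrophage class, 3 the T and NK cell class, 2 the dendritic class, 1 the neutrophil and 1 the Schwann cell class. No panel of marrow progenitors was among the classes.

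Single carriers held genes of other lineages at high counts. A cell of 12827 UMIs held 605 UMIs of Prss34 and 162 of Mcpt8, protease genes of basophils, with 43 of Ctsg, 9 of Mpo and 0 of Elane and Prtn3. A cell of 4817 UMIs held 470 UMIs of Cma1 and 293 of Mcpt4, chymase genes of mast cells, and of the azurophil set only 20 of Ctsg. A cell of 23056 UMIs with 22 UMIs of Ms4a3 held 41 of Gata2, 40 of Sox4 and 53 UMIs of the basophil and mast cell list besides 58 of Mpo and 29 of Ctsg. A cell of 36402 UMIs held 99 of the 140 Ctrl UMIs of Dntt, the terminal transferase gene of lymphoid precursors, with 18 of Myb, 14 of Flt3, 13 of Prtn3 and 13 of Ctsg. The deepest carrier, at 55152 UMIs, held 139 UMIs of Mpo and 43 of the macrophage gene C1qa, and doublets were not called. Without the 4 cells with basophil or mast cell genes, an alternative chosen after seeing the data, 19 azurophil carriers remained in Ctrl, and 19 of 19 had a cycling gene.

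Genes most like the azurophil set were sought among all other genes with at least 20 UMIs in the carriers and found in at least 20% of them, by the share of their UMIs that lay in the carriers. The carriers held 0.661% of all UMIs. Mcpt8 stood first, with 97.4% of 193 UMIs in carriers, though in 5 of 23 cells and chiefly in 1. Ms4a3 followed, with 89.3% of 243 UMIs in 20 of 23 carriers, then the serine protease gene Prss57 with 60.0%, Fcnb with 57.2%, 1700020L24Rik, Rab44 and BC035044. Cst7, the gene of cystatin F, had 30.4% of its UMIs in the carriers but was present in 22 of 23, and Bex6 and the progenitor factor gene Myb (27.2%, 14 of 23) closed the list of 10.

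Among the specific granule genes Camp was counted at 17777 UMIs in 240 Ctrl cells and 3118 UMIs in 31 dKO cells. Ngp was counted at 14813 UMIs in 210 Ctrl and 3429 in 26 dKO cells, and Ltf at 3319 UMIs in 111 Ctrl and 637 in 15 dKO cells. Between 98.1% and 99.5% of these UMIs lay in the carriers of the set, in either library. All 57 Ctrl and 8 dKO carriers took the neutrophil class, whose panel holds none of the 9 genes.

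The 3 genes differed in where along the series they were found. In the 4 Ctrl cells with azurophil and specific genes, Camp and Ngp were in 4 of 4 cells at medians of 790 and 293.5 UMIs, while Ltf was at 0, 1, 2 and 21 UMIs. In the 15 cells with the specific set alone all 3 genes were in every cell, with medians of 468 for Camp, 417 for Ngp and 84 for Ltf. In the 38 cells with late genes the medians were 108, 130.5 and 49.5 UMIs, and in the 23 with the late set alone Camp was in 2 cells (5 UMIs), Ngp in 7 (33 UMIs) and Ltf in 0. Ltf was thus scarce where Camp and Ngp were already high, and of the 3 genes Ngp was found in most cells with the late set alone.

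The dKO levels rested on few cells. Its 8 carriers held 14 to 3082 UMIs of the set, and 1 cell of 24183 UMIs held 1646 UMIs of Camp (52.8% of all in the library), 1241 of Ngp (36.2%) and 195 of Ltf (30.6%). Within cells with specific and late genes the median level of Camp was 15442 CPM in 38 Ctrl and 35239 CPM in 7 dKO cells, of Ngp 21506 and 51317 CPM, and of Ltf 6972 and 8064 CPM. In the same cells Retnlg stood at medians of 19865 and 14433 CPM and Mmp9 at 1192 and 671 CPM, and in cells with the late set alone Retnlg stood at 20423 CPM in 23 Ctrl and 2995 CPM in 11 dKO cells. Without the 2 dKO cells that had under 10 UMIs of S100a8 and S100a9 and no Retnlg, a choice made after seeing the data, the dKO median was 11644 CPM. In both libraries the levels of Camp and Ltf in cells with specific and late genes ran from 0, and the ranges of the libraries overlapped for all 5 genes. Cells of 1 library share their source, so no interval is given for these medians.

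Genes most like the specific set were ranked in the same way and included other neutrophil genes. Ldhc had 98.2% of 57 UMIs in the 65 carriers, the integrin gene Itgb2l 97.4% of 113, Fcnb 93.5%, Wfdc21 85.1% of 2117 (65 of 65 carriers), Orm1 83.5%, the surface protein gene Ly6g 81.9%, Abca13 80.8% and the lipocalin gene Lcn2 78.4% of 8716 (65 of 65). S100a8 and S100a9 had 81.8% and 80.0% and were in all 65. The carriers held 0.713% of all UMIs.

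Retnlg was counted at 6967 UMIs in 198 Ctrl cells and 924 in 45 dKO cells, and Mmp9 at 598 UMIs in 176 Ctrl and 248 in 86 dKO cells. Retnlg set the calls of the late set: 58 of 61 Ctrl and 15 of 18 dKO late carriers had 10 or more of its UMIs, against 16 and 2 with 10 or more of Mmp9. The genes differed in how far they were confined to carriers, which held 96.8% of Ctrl and 93.7% of dKO Retnlg UMIs but 67.1% and 47.6% of Mmp9 UMIs. In Ctrl cells with 10 or more Retnlg UMIs, Mmp9 was present in 55 of 58 at 1159 CPM, against 5.06 CPM elsewhere, and in the 15 such dKO cells in 11, at 420 CPM against 6.29 CPM.

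The dKO late carriers included cells with next to no neutrophil transcripts. All 61 Ctrl late carriers had 10 or more UMIs of S100a8 and S100a9, and 16 of 18 dKO late carriers did. The other 2 had no Retnlg and were called by Mmp9 alone, at 11 and 66 UMIs. The cell with 66 held 26.6% of all dKO Mmp9 UMIs. It had 25295 UMIs in all, with 203 of Acp5, 86 of Ctsk and 36 of Atp6v0d2, genes of osteoclasts, but 1 of Dcstamp and 0 of Ocstamp, their fusion genes, and 1 UMI of S100a8 and S100a9. These genes were chosen after the values of the cell had been seen. Among late carriers with 10 or more UMIs of S100a8 and S100a9, 5 of 61 in Ctrl and 2 of 16 in dKO had a cycling gene.

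Genes most like the late set were Ceacam10 (88.9% of 36 UMIs in the 79 carriers), Ly6g (83.3% of 227), Krt83 (78.3%), Mrgpra2b, B230303A05Rik, the histone deiminase gene Padi4 (67.9%), the collagenase gene Mmp8 (65.1% of 1185), Ldhc, Itgb2l and Wfdc21. Of the 10, Ly6g, Ldhc, Itgb2l and Wfdc21 were also among the 10 most like the specific set, with which the late set shared 45 carriers.

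Over whole libraries all 9 genes were lower in dKO, and 8 of 9 were lower by 2-fold or more, against 3.45% of the 13769 genes with at least 50 UMIs. This contrast is the one by which the genes had come to notice, so nothing is read from that count. The log2 ratio of dKO to Ctrl was -8.63 for Elane (-10.9 to -7.08), -7.04 for Ctsg (-8.92 to -5.67), -5.33 for Mpo (-5.98 to -4.75) and -4.20 for Prtn3 (-4.50 to -3.91). For the specific set it was -2.08 for Camp (-2.14 to -2.03), -1.68 for Ngp (-1.74 to -1.63) and -1.95 for Ltf (-2.08 to -1.83). For the late set it was -2.48 for Retnlg (-2.58 to -2.38) and -0.84 for Mmp9 (-1.06 to -0.62). The azurophil genes thus stood lowest and Mmp9 alone stayed within 2-fold.

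These ratios carry 2 limits. Leaving out the cell with most UMIs of the gene in each library took Camp to -2.96 and Mmp9 to -1.23, which is past 2-fold, as did 2 other alternatives for Mmp9. Averaging the CPM of each cell took Elane to -6.73, Ctsg to -5.09 and Prtn3 to -2.93. In summed counts fewer cells of a type and less RNA per cell cannot be told apart, and a library of pooled mice does not show whether the carriers came from 1 mouse.

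Outside all carriers, in the 4428 Ctrl and 3464 dKO cells with no set, the genes were counted at low levels, spread over several classes. Of the large classes, Elane and Ltf were at 0 UMIs in the 869 dKO cells of the monocyte and macrophage class, and Elane, Mpo, Ctsg and Ltf at 0 in the 247 dKO endothelial cells. Elane stood at 0.674 and 0.0891 CPM in Ctrl and dKO, Ctsg at 0.337 and 0.119, Mpo at 0.876 and 0.713, Ltf at 1.39 and 0.238, Ngp at 3.37 and 0.535, Prtn3 at 3.57 and 3.03, Camp at 4.31 and 0.713, Mmp9 at 4.31 and 3.86 and Retnlg at 4.67 and 1.72 CPM. Most of the cells with Camp, Ngp or Ltf here had a single UMI (173 of 182 for Ctrl Camp). Cells of the fibro/adipogenic progenitor (FAP) class, stromal cells with no granules, had a Camp UMI in 5.46% of 1045 Ctrl cells and 0.943% of 1061 dKO cells, at median depths of 12306 and 12431 UMIs. Monocyte and macrophage cells had 1 in 4.71% of 1125 and 0.921% of 869 cells, at 8575 and 7330 UMIs. A share of cells with a single UMI is therefore not read as expression of the gene. The neutrophil class held 163 of 4527 Ctrl and 79 of 3483 dKO cells. Of these, 83 in Ctrl and 62 in dKO were under the limit, shallow cells with medians of 1796 and 1642 UMIs. In these Retnlg stood at 349 CPM in Ctrl (285 to 424) and 189 CPM in dKO (138 to 254), Mmp9 at 212 CPM (163 to 272) and 150 CPM (104.8 to 209), and Mpo and Ctsg at 0 UMIs in either library.

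The 9 genes differed among themselves outside the carriers. The log2 ratio of dKO to Ctrl was -2.60 for Camp (-3.27 to -1.98), -2.66 for Ngp (-3.45 to -1.94), -2.55 for Ltf (-3.82 to -1.48), -2.92 for Elane (-5.27 to -1.23) and -1.44 for Retnlg (-1.88 to -1.01). For Prtn3 it was -0.24 (-0.61 to 0.13), for Mpo -0.30 (-1.09 to 0.47) and for Mmp9 -0.16 (-0.49 to 0.17), intervals that include 0, and Ctsg, at 15 and 4 UMIs, had -1.50 (-3.55 to 0.15). Prtn3 in FAP class cells stood at 3.35 CPM in Ctrl (2.49 to 4.42) and 3.59 CPM in dKO (2.71 to 4.67). Mpo there stood at 1.54 (0.978 to 2.31) and 1.05 CPM (0.597 to 1.70).

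**Figure D4:**
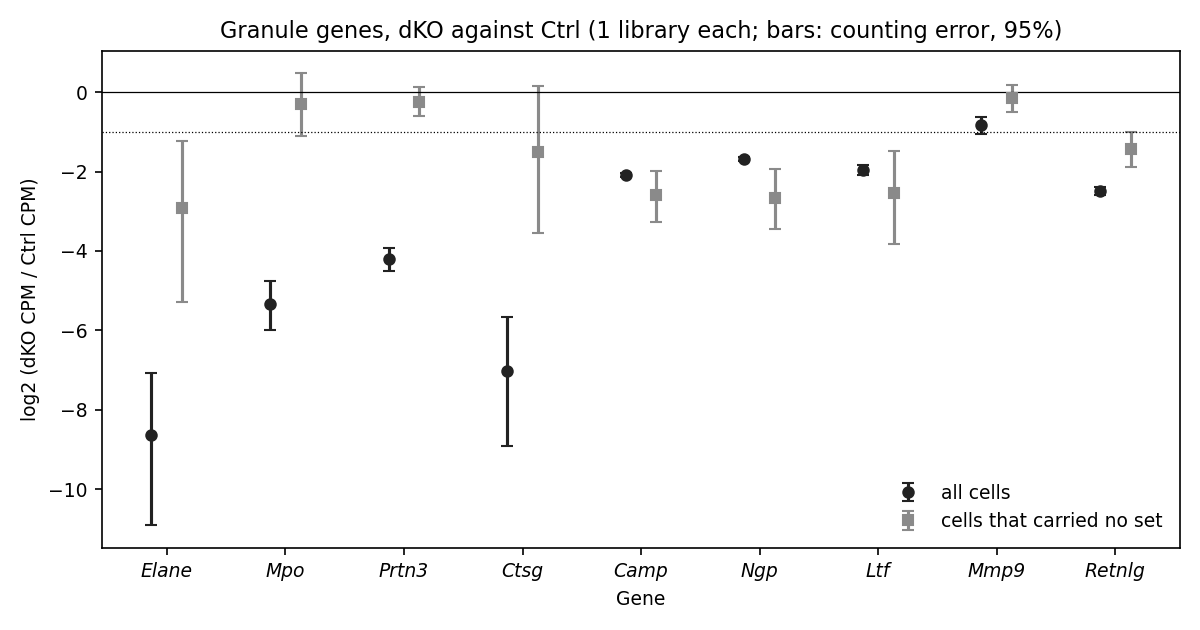
Log2 ratio of dKO to Ctrl CPM for each gene over all cells (circles) and over cells that carried no set (squares), 1 library per group, with 95% intervals for counting error; the dotted line marks 2-fold lower. Outside the carriers Camp, Ngp and Ltf lie near -2.6 while the intervals of Mpo, Prtn3, Ctsg and Mmp9 include 0.

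The make-up of each set was compared inside and outside the carriers. Camp was 49.6% of the specific set's UMIs inside Ctrl carriers (49.0 to 50.1) and 47.5% outside all carriers (42.6 to 52.5), and Ngp 41.2% and 37.1% (32.4 to 42.0), so the Camp interval outside held the value inside. Ltf was 9.18% inside (8.88 to 9.49) and 15.3% outside (11.97 to 19.2). In dKO carriers Camp was 43.4% (42.2 to 44.5), Ngp 47.8% (46.6 to 49.0) and Ltf 8.82%, and the 50 dKO UMIs outside carriers were 24 of Camp, 18 of Ngp and 8 of Ltf. In the azurophil set Prtn3 was 40.2% of UMIs inside Ctrl carriers (38.9 to 41.4), 65.4% outside in Ctrl (59.1 to 71.4) and 76.7% outside in dKO (68.6 to 83.6), while Elane was 26.6%, 12.3% and 2.26%. In the late set Mmp9 was 5.61% of UMIs inside Ctrl carriers (5.09 to 6.17), and outside all carriers 192 of 400 UMIs in Ctrl and 130 of 188 in dKO were Mmp9. In Ctrl the intervals of Camp and Ngp outside the carriers thus held their shares inside. Those of Ltf, Elane, Mpo, Prtn3, Ctsg, Mmp9 and Retnlg did not. UMIs of the same cell are not independent draws, which these intervals do not allow for, so they are not read as a test. In dKO Camp was below Ngp inside the carriers and above it outside, on 50 UMIs. The source of the UMIs outside carriers was not tested.

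Other granule genes, from a list of 20 with all 20 tested, were 2-fold or more lower in dKO in 10 cases, against 3.45% of all genes tested, with a median log2 ratio of -1.07. They were Ms4a3 (238 and 5 UMIs, -5.14), Padi4, Wfdc21, Fcnb, Mmp8, Itgb2l, Pglyrp1, Orm1, Cd177 and Lcn2 (6773 and 1943 UMIs, -1.37). The 10 within 2-fold had log2 ratios from -0.77 for Olfm4, seen in 9 Ctrl and 3 dKO cells, to 0.30 for Hp, with Lyz2 at -0.67 and Cst7 at -0.30. Of 12 neutrophil panel genes 5 were 2-fold or more lower, with a median of -0.49. Of 9 regulator genes tested 2 were, with a median of -0.05, and of 16 cell cycle genes 0 were, with a median of -0.35.

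Some genes of these lists, chosen after their values were seen, are given by the sets carried. Fcnb stood at 22.9 CPM in cells with the azurophil set alone, 1599 with azurophil and specific genes, 382 with the specific set alone, 148 with specific and late genes and 0 with late genes alone, both libraries summed. Ms4a3 stood at 247, 1245, 116, 12.1 and 0 CPM and Cebpe at 18.3, 685, 348, 139 and 0 CPM in the same order. Irf8 was at 476 CPM in the azurophil-only cells and at 0 to 48.2 CPM in the rest. Cxcr2, the receptor by which mature neutrophils follow chemokines, stood in Ctrl at 9.16 CPM (4 UMIs) and 22.8 CPM (2 UMIs) in the cells with azurophil genes, at 87.1 CPM with the specific set alone (45.0 to 152), 275 CPM with specific and late genes (216 to 344) and 749 CPM with late genes alone (570.0 to 966). Mmp8 was at 1849 CPM in cells with specific and late genes and at 32.0 CPM in those with the azurophil set alone.

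Since azurophil transcripts are usual in marrow, lists of other marrow cells were counted beside them. Genes of B cell precursors were 2-fold or more lower in dKO in 4 of 4 cases tested, against 3.45% of all genes tested, namely Vpreb3 (337 and 67 UMIs), Vpreb1 (139 and 47), Dntt (140 and 10) and Igll1 (66 and 19), and the list of 7 summed to 711 and 153 UMIs. The azurophil carriers held 99 UMIs of that list, all in 1 cell, and the specific and late carriers 0. Of 5 erythroid genes tested 1 was 2-fold or more lower (Hba-a1, 621 and 192 UMIs), of 4 megakaryocyte genes 1 (Ppbp, 240 and 56), and of 7 progenitor genes 1 (Gata2, 628 and 147). Of 8 genes of basophils and mast cells 3 were, namely Mcpt8 (193 and 0 UMIs), Prss34 (630 and 27) and Ms4a2 (46 and 6), and the other 5 had log2 ratios of 0.01 to 1.00, with Mcpt8 left without a ratio. The 1 Ctrl azurophil carrier with 605 UMIs of Prss34 and 162 of Mcpt8 held most of the UMIs of both genes. Endothelial genes, in 6 of 8 cases, and MuSC and myocyte genes, in 5 of 8, were also 2-fold or more lower in dKO. So were genes of pericytes and smooth muscle, in 3 of 6 cases. The part of marrow cells in the difference between the libraries was not tested, and with 1 library per group it cannot be told apart from the genotype.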

How the data were processed

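The authors sorted live cells, made 10x Chromium libraries and sequenced them on an Illumina HiSeq. The deposited matrices hold raw UMI counts per gene and cell, not normalized. The submitters' processing notes name Cell Ranger 7.0.0, Seurat 4.3.0 and mm10, while the matrix header names version 3.0.2. All deposited cells were used. The study states 2 cell filters, each with a limit on mitochondrial genes, and each with doublet removal, neither applied here: at least 500 genes, in its methods, would leave 4335 Ctrl and 3329 dKO cells, and at least 200 genes and 1000 UMIs, in its results, 4295 and 3306. The 9 genes, the lists and the limits were chosen with earlier results of these data known. Limits were 10 UMIs for a carrier, 1 UMI of Mki67 or Top2a for a cycling gene and 50 UMIs for a ratio. Genes named as most like a set were the 10 with the highest share in its carriers. Cells took 1 of 11 classes from marker panels by mean z-score (at least 0.5, and 0.25 above the next), a range and not a type, with 495 Ctrl and 422 dKO cells near a limit; 3 panel genes were not matched. Doublets were not called. Intervals are exact at 95%. The ratio step was tested on simulated data. Values were computed in Python 3.11.15 with numpy 2.4.6, scipy 1.17.1 and pandas 2.3.3. Alternatives changed the carrier limit, the cell filter, the cycling rule, thinning and the scaling.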

Additional observations from a re-analysis of the deposited data

How the results depend on the processing

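Of 135 alternative values 108 stayed within the main value's counting interval or within 1.5 times its count, 27 moved and 0 reversed, and all 45 alternative ratios of the 9 genes stayed below 0. Scaling to the median gene shifted ratios by 0.05 (log2). Without the 7.5% of cells with most UMIs (at least 23911 in Ctrl and 22682 in dKO), 15 azurophil carriers were left in Ctrl, and the log2 ratios were -3.62 for Prtn3, -2.96 for Camp, -2.24 for Ngp, -2.47 for Ltf and -1.63 for Mmp9. At a limit of 3 UMIs there were 34 Ctrl and 2 dKO azurophil carriers, of which 85.3% in Ctrl had a cycling gene, and there were 99 Ctrl and 41 dKO late carriers; at 30 UMIs dKO had 10 late carriers. At 0.1% of the UMIs of the cell there were 98 Ctrl and 34 dKO late carriers, and 2.94% of the latter had a cycling gene. Thinned to 2000 UMIs, 65.2% of azurophil carriers had a cycling gene. With 2 UMIs of the pair, or 5 of the cell cycle list, 1.64% of Ctrl late carriers did. Averaging the CPM of each cell gave log2 ratios of -6.73 for Elane, -2.93 for Prtn3, -5.09 for Ctsg, -2.22 for Camp, -1.33 for Mmp9 and -2.31 for Retnlg. Without the top cell of the gene in each library they were -2.96 for Camp, -2.23 for Ngp, -2.38 for Ltf, -1.23 for Mmp9 and -2.82 for Retnlg. With at least 500 genes per cell there were 23 and 0 azurophil, 56 and 8 specific and 58 and 18 late carriers in Ctrl and dKO. With at least 200 genes and 1000 UMIs, chosen after seeing the data, there were 23 and 0 azurophil, 56 and 8 specific and 60 and 18 late carriers. The causes were not tested. With 2 libraries and no replicates, the number of cells limits the shares: 0 of 3483 dKO cells allows a share of azurophil carriers of up to 0.106% (exact). No paired analysis was possible because each group has 1 library and no test was run.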
